A study of Mus musculus with 19 samples.

Results

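The effect of a transgene for spinocerebellar ataxia type 3 (SCA3) on brain RNA was examined in placebo-treated male mice, with 5 arrays labelled SCA3 transgenic set against 4 arrays labelled wild type (wt). These 9 arrays are all those of the 19 in the series whose labels give placebo as the agent. The other 10 arrays, 5 of each genotype, came from mice injected into the peritoneum with CCI-779 (temsirolimus, an ester of rapamycin that inhibits the kinase mTOR) at 20 mg/kg. Placebo or drug was injected 3 times weekly for 6 weeks, starting at an age of 5 weeks, and RNA was taken from dissected, snap-frozen brains. The labels name neither the promoter, repeat length and founder line of the transgene nor the mouse strain, and they do not say that each array stands for a separate mouse. The p-values below therefore reflect only how far these samples spread, and that spread may be technical.

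SCA3, also called Machado-Joseph disease, is caused by an expanded glutamine repeat in ataxin-3, a deubiquitinase with a Josephin catalytic domain that trims ubiquitin chains and works with the segregase VCP and the ubiquitin ligase Stub1. The expanded protein forms inclusions in neurons, and the neurons known to suffer most lie in the brainstem, the cerebellar nuclei, the basal ganglia and the spinal cord. Whole-brain RNA mixes these regions with much tissue that is affected less.

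Of 45037 probe sets, which are groups of short probes that read one stretch of a transcript, 20473 averaged 4 or more in log2 intensity across the 19 arrays and were tested. They represent 10454 genes when each gene is read by its brightest tested probe set. All values below are log2 intensities, differences are SCA3 minus wt, and 1 unit is a doubling. Adjusted p-values come from limma with Benjamini-Hochberg adjustment over the 20473 probe sets, with a threshold of 0.05, and unadjusted p-values are compared with 0.05 for description only. The mean intensity of the 9 arrays lay between 443 and 462 and any 2 of them correlated at 0.988 to 0.995. None of 5 measures of array quality (mean intensity, hybridisation and labelling spike-ins, and the 3′ to 5′ differences of Gapdh and Actb) separated the genotypes in exact two-sided permutation tests, with unadjusted p-values of 0.143 to 0.762 and adjusted ones of 0.476 to 0.762. The smallest unadjusted p the design allows is 0.0159. After adjustment over 5 measures, a single measure could not reach 0.05 even with full separation. These tests therefore cannot show that the arrays are alike. One wt placebo array, replicate 3, stood below the other 8 for cerebellar markers, and 3 of the CCI-779 arrays (wt replicate 1, SCA3 replicates 2 and 5) stood apart on the first 2 principal components of the 19 arrays. The calls, the counts of genes and the lists that shifted most are given with and without them. The quality tests left out the CCI-779 arrays. Hybridisation spike-ins read 9.97 to 10.65 on CCI-779 arrays, below the 10.88 to 11.60 of the placebo arrays. Gapdh and Actb differences were 0.28 and 2.55 for wt replicate 1 under CCI-779, where no other array exceeded -0.28 and 1.55. Whether these measures bear on the spread or on levels compared between the agents was not tested.

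The mouse Atxn3 probe set read 8.41, 8.32, 8.31 and 8.25 on the 4 wt arrays and 8.41, 8.05, 8.07, 8.06 and 8.34 on the 5 SCA3 arrays. The groups overlap, and the difference was -0.14 with a 95% interval of -0.35 to 0.07 (adjusted p = 0.961). Whether these probes also read the transgene's RNA is not known from the files, so the probe set checks no label. Prnp, the prion protein gene, differed by 0.00 (95% interval -0.11 to 0.12) on its brightest probe set and by 0.05 on the other. Usp15, a deubiquitinase gene, was read by 5 tested probe sets. The brightest differed by -0.02 (95% interval -0.26 to 0.23). A dimmer one, 1436891_at, read 6.33, 6.84, 6.74 and 6.99 in wt and 6.26, 6.07, 6.26, 5.79 and 6.30 in SCA3. All 5 SCA3 arrays thus lay below all 4 wt arrays, but the difference of -0.59 ± 0.21 (SE) did not pass (adjusted p = 0.709), and the other 3 Usp15 probe sets overlapped between the genotypes with differences of -0.13, -0.12 and -0.23.

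Under placebo, 2 of the 20473 probe sets (0.00977%) passed the threshold, both lower in SCA3: one of Arglu1 and one of Slc8a1. Arglu1 encodes a nuclear protein rich in arginine and glutamate that acts in RNA splicing and as a transcriptional coactivator. Its probe set 1433598_at read 6.96, 7.38, 7.21 and 7.56 in wt and 6.42, 6.18, 6.02, 5.84 and 5.88 in SCA3. No SCA3 array reached the lowest wt array. The SCA3 mean was 6.07 ± 0.24 (SD, n = 5) against 7.28 ± 0.25 (SD, n = 4), a difference of -1.21 ± 0.17 (SE; 95% interval -1.57 to -0.85; adjusted p = 0.032), or 2.31-fold lower. The second Arglu1 probe set, 1433597_at, was much the brighter and did not follow it, with wt arrays at 11.04 to 11.09, SCA3 arrays at 10.95 to 11.14 and a difference of -0.03 (95% interval -0.20 to 0.15). When the pair was averaged and genes were tested by such means, Arglu1 was the 1 gene that passed, at -0.62 (adjusted p = 0.00846).

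Slc8a1 encodes the sodium-calcium exchanger of the plasma membrane that removes calcium from excitable cells. Probe set 1437675_at read 9.54, 9.84, 9.77 and 9.71 in wt and 9.21, 9.04, 8.78, 8.94 and 8.78 in SCA3, again without overlap. The means were 9.72 ± 0.13 (SD, n = 4) and 8.95 ± 0.18 (SD, n = 5), a difference of -0.77 ± 0.12 (SE; 95% interval -1.01 to -0.52; adjusted p = 0.0432), or 1.70-fold lower. The gene's brightest probe set, 1440201_at, read 9.67, 9.62, 9.37 and 9.60 in wt and 9.21, 9.69, 9.5, 9.57 and 9.33 in SCA3, a difference of -0.10 (95% interval -0.33 to 0.12). The paralogous exchanger gene Slc8a2 differed by 0.02.

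On the CCI-779 arrays both differences were near 0. Arglu1 1433598_at read 5.97 to 6.84 (median 6.40) in wt and 5.95 to 6.61 (median 6.33) in SCA3, a genotype difference of -0.06. Slc8a1 1437675_at read 9.01 to 9.53 (median 9.44) in wt and 9.22 to 9.63 (median 9.35) in SCA3, a difference of 0.06. For Arglu1, all 4 wt placebo arrays lay above each of the other 15 arrays, whose highest read 6.84, whereas for Slc8a1 the highest of the other 15, at 9.63, lay above 1 wt placebo array. These levels are compared across the 2 agents, whose arrays also differed in hybridisation spike-ins. The test of the difference between the genotype effects under the 2 agents, the interaction, gave 1.15 ± 0.24 (SE; adjusted p = 0.403) for Arglu1 and 0.83 ± 0.16 (SE; adjusted p = 0.37) for Slc8a1, so that difference did not pass for either.

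Both calls lie near the threshold, and removing single arrays ended them. Over 29 refits with other filters, scalings, priors or arrays, Arglu1 passed in 13 and Slc8a1 in 10, while the differences stayed between -1.32 and -1.12 and between -0.83 and -0.72. Without any 1 of wt placebo replicates 2, 3 and 4 or SCA3 placebo replicates 2, 3, 4 and 5 the adjusted p was 0.0732 to 0.16 for Arglu1 and 0.0755 to 0.204 for Slc8a1. Removing a CCI-779 array could do the same: it was 0.0538 to 0.0636 for Arglu1 with wt CCI-779 replicate 3 or 4 or SCA3 CCI-779 replicate 2, 3 or 5 removed, and 0.0538 to 0.0804 for Slc8a1 with wt CCI-779 replicate 1, 3 or 4 or SCA3 CCI-779 replicate 1, 2, 3 or 5 removed. Without the 3 CCI-779 arrays that stand apart it was 0.0719 and 0.124, with 0 calls in all. The 9 placebo arrays fitted alone gave 0.0788 and 0.0868 and 1 call, a probe set of the zinc finger gene Zfp871 that differed by -0.77 (adjusted p = 0.0152) and was chosen after its value was seen. Without wt placebo replicate 1 there were 8 calls, 2 higher and 6 lower, among them Arglu1 (-1.32, adjusted p = 0.0232) and Slc8a1 (-0.83, adjusted p = 0.0343).

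**Figure D1:**
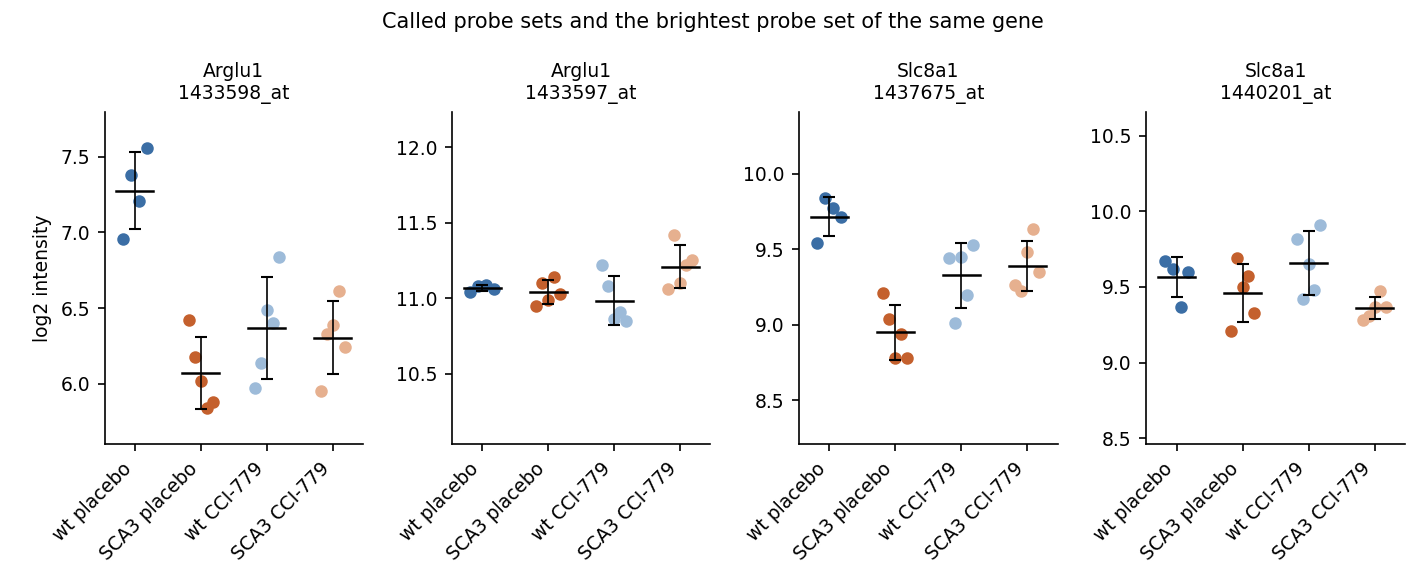
Log2 intensity (vertical axes, each spanning the same width) of the called Arglu1 and Slc8a1 probe sets, each beside the brightest probe set of its gene, in 4 groups of arrays. Points are arrays, horizontal bars are group means and error bars are SDs; the SCA3 placebo arrays of the called Arglu1 probe set sit between 5.84 and 6.42, below the wt placebo arrays at 6.96 to 7.56, while the brightest probe set of the gene stays within 10.95 to 11.14 on both kinds of placebo array.

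The rest of the transcriptome differed little between the genotypes. No gene passed when genes, read by their brightest probe set, were tested as a family (0 of 10454 by limma), although 556 (5.32%) had an unadjusted p under 0.05. Of these, 384 (3.67% of all genes) were higher in SCA3 and 172 (1.65%) were lower. Genes whose 2 groups of arrays did not overlap numbered 155 (1.48%) on the higher side and 76 (0.727%) on the lower side. The median 95% interval of a gene reached 0.21 to either side of its difference, and for 87.1% of genes the whole interval lay within 0.5 of 0. Over all 20473 probe sets, 3.13% were higher and 2.62% lower at an unadjusted p under 0.05. Differences of at least 0.5 were estimated for 54 genes and of at least 1 for 0 genes.

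The excess of genes on the higher side was small in size, and its extent depended on single arrays. A difference above 0 was found for 60.2% of genes, with a median of 0.024, so the whole distribution sat slightly to the higher side. Without wt placebo replicate 3, the counts of genes at an unadjusted p under 0.05 were 224 higher and 179 lower, and 55.5% of genes were above 0. The counts were 218 higher and 150 lower without SCA3 placebo replicate 5, and 663 higher and 200 lower without wt placebo replicate 1. Without the 3 CCI-779 arrays that stand apart, 557 genes were higher and 289 lower, 846 in place of 556. The number of genes at this level thus also depended on arrays outside the placebo comparison. With array weights, 671 genes were higher and 315 lower. Centring each array on its median gave 359 higher and 209 lower genes with 53.7% above 0.

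Probe sets differed in direction by their kind. Among the 10454 brightest probe sets 3.67% were higher and 1.65% lower at an unadjusted p under 0.05, among 7414 further probe sets of the same genes 2.78% were higher and 3.40% lower, and among 2605 probe sets with no single gene symbol 1.92% were higher and 4.34% lower. Of the 30 probe sets with the smallest p, 27 were lower in SCA3, and of these 17 were further probe sets and 6 had no single symbol, whereas the 3 higher ones were all the brightest of their gene. These kinds also differ in level, with median mean intensities of 8.60, 7.65 and 7.18, and the part of the transcript that each probe set reads was not looked up.

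Several other genes showed a split between probe sets like that of Arglu1 and Slc8a1. They were chosen after their values were seen, from among those with a small p for the difference between a further probe set and the brightest one. Slc1a2, the main glutamate transporter of astrocytes, read 8.47, 9.08, 8.83 and 9.0 in wt and 8.34, 8.0, 7.78, 7.77 and 7.84 in SCA3 on probe set 1439940_at, a difference of -0.90 (adjusted p = 0.336). Its brightest probe set read 13.56 to 13.82 on the 9 arrays and differed by -0.01. Rc3h2, an RNA-binding ubiquitin ligase gene, differed by -1.13 on 1438268_at (adjusted p = 0.336) and by 0.09 on its brightest probe set. The neuronal transcription factor gene Myt1l differed by -1.08 on 1430599_at (adjusted p = 0.355) and by -0.11 on its brightest, and Mbp, which encodes myelin basic protein, by -0.88 on 1425263_a_at (adjusted p = 0.501) and by 0.10. The Mbp probe set 1425263_a_at was dim, at 5.12 to 6.67 on the 9 arrays, where the gene's brightest read 15.26 to 15.50. On these 4 probe sets, 1 per gene, all SCA3 arrays lay below all wt arrays, as on 136 of all 7414 further probe sets. The other 12 further probe sets of these genes all overlapped between the genotypes, with differences of -0.25 to 0.14. On the CCI-779 arrays the 4 probe sets differed by 0.39 (Slc1a2), 0.51 (Rc3h2), -0.07 (Myt1l) and 0.21 (Mbp). Over 7414 pairs in 4567 genes, 0 passed a limma test of the difference between probe sets of a gene, with 522 at an unadjusted p under 0.05; the smallest adjusted p was 0.105, shared by Arglu1 and Asph, and Slc8a1 stood at 0.137. Asph and Kcnh1 differed by -0.52 and -0.69 on a further probe set, but their brightest ones read higher in SCA3, by 0.29 and 0.32.

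The 12 higher genes with the smallest p, by their brightest probe set, differed by 0.25 to 0.68 with adjusted p-values of 0.355 to 0.492, so none passed. Foxred2, a flavoprotein of endoplasmic reticulum-associated degradation, read 7.35, 6.94, 6.63 and 7.12 in wt and 7.78, 7.61, 7.68, 7.54 and 7.83 in SCA3. No wt array reached the lowest SCA3 array, and the difference was 0.68 ± 0.15 (SE; adjusted p = 0.355). Dnajc18, a J-domain cochaperone, differed by 0.52 and Selenon, a selenoprotein of the endoplasmic reticulum, by 0.37. Zranb1, a deubiquitinase that cuts atypical ubiquitin chains, read 8.64, 8.02, 7.76 and 7.95 in wt and 8.86, 8.47, 8.72, 8.58 and 8.84 in SCA3, a difference of 0.60 ± 0.14 (SE; adjusted p = 0.371). Its groups overlapped through wt placebo replicate 1 alone, without which Zranb1 (0.78, adjusted p = 0.0232) and Selenon (0.48, adjusted p = 0.0343) passed. Rnf123, a subunit of a ubiquitin ligase, differed by 0.31. Sidt1, a membrane protein of RNA transport, differed by 0.45 with no overlap between groups. Nfe2l3, a bZIP transcription factor related to Nfe2l2, differed by 0.52, Dele1, which relays mitochondrial stress, by 0.35, and Acad8, an enzyme of valine breakdown, by 0.29. The remaining genes of this set were Add3, the cytoskeletal protein adducin gamma, at 0.29, Slc4a3, an anion exchanger, at 0.27, and Fam102a at 0.25. In 6 of the 12 the groups did not overlap.

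The 12 lower genes with the smallest p differed by -0.61 to -0.21 with adjusted p-values of 0.172 to 0.572, and none passed. Gabrg3, a gamma subunit of the GABA-A receptor, had the smallest: it read 6.35, 6.02, 6.17 and 5.86 in wt and 5.76, 5.71, 5.57, 5.67 and 5.49 in SCA3. Every SCA3 array lay below every wt array, with a difference of -0.46 ± 0.08 (SE; adjusted p = 0.172). Tle1, a Groucho-type corepressor, differed by -0.48 and Kdm5b, a histone demethylase, by -0.39. Rab1b, a small GTPase of traffic from the endoplasmic reticulum to the Golgi, read 8.58 to 8.81 in wt and 8.26 to 8.40 in SCA3, a difference of -0.38. Rabep1, an effector of early endosome fusion, differed by -0.21, Bpnt2, a Golgi nucleotide phosphatase, by -0.35, and the kinase gene Gsk3b by -0.37. With other filters, scalings, priors, arrays or gene summaries these 3 ran from -0.24 to -0.05, from -0.40 to -0.16 and from -0.43 to -0.07. Hsph1, an Hsp110-type chaperone, differed by -0.23 and Eif2d, a translation factor, by -0.21. Rusf1 read 6.59 to 6.86 in wt and 6.35 to 6.42 in SCA3, a difference of -0.35, Fam81a differed by -0.61 and 9330159F19Rik by -0.29. In 9 of the 12 the groups did not overlap. For both sets together this was 15 of 24, against 231 of 10454 genes (2.21%) in all; the sets were chosen for small p, so these counts describe them and support nothing.

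**Figure D2:**
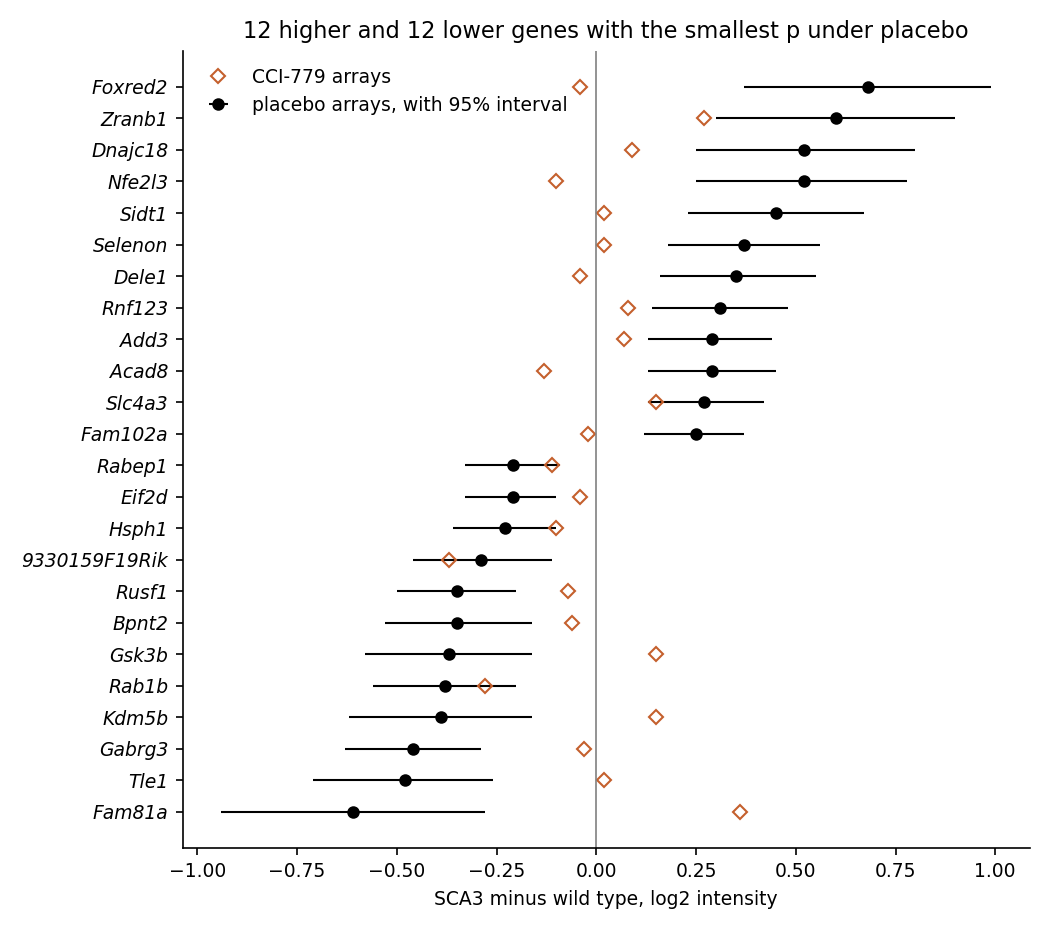
SCA3 minus wt difference in log2 intensity (horizontal axis) of the 12 higher and 12 lower genes with the smallest p under placebo. Black points with bars are the placebo difference and its 95% interval, and open diamonds are the same genotype difference on the CCI-779 arrays; placebo differences run from -0.61 for Fam81a to 0.68 for Foxred2, and the diamonds of the 12 higher genes have a median of 0.02.

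Among genes whose groups did not overlap, the widest differences not yet given were these. Dlg4, which encodes the postsynaptic scaffold PSD-95, read 8.90, 8.89, 8.91 and 8.80 in wt and 8.40, 8.29, 8.18, 7.89 and 8.09 in SCA3. Its difference was -0.70 ± 0.32 (SE; adjusted p = 0.845). The error pools all groups, and the wt CCI-779 arrays ran from 6.78 to 9.22, and in the fit on the 9 placebo arrays alone the adjusted p was 0.0868. Bcl2l11, the pro-apoptotic BH3 protein Bim, differed by -0.72 and Pfn1, the actin-binding profilin, by -0.75 ± 0.49 (SE). Bcl2l11 lay near the filter level of 4, at 4.49 to 5.44 in wt and 3.68 to 4.49 in SCA3. Pfn1 read 8.27 to 9.32 in wt and 7.59 to 8.27 in SCA3, so in both genes the groups all but met. Dtnb, a dystrobrevin, differed by -0.58, Tnr, the matrix protein tenascin-R, by -0.50, and Prrc2c by -0.46. On the higher side Dipk1b differed by 0.59, Drd2, the dopamine D2 receptor of striatal neurons, by 0.45, Aen, a nuclease induced by p53, by 0.43, and Dpp9, a dipeptidyl peptidase, by 0.41. None of these 10 passed, with adjusted p-values of 0.621 to 0.936.

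Across 49 gene lists holding 997 tested genes, 0 lists had a gene past the threshold, and list medians ran from -0.08 to 0.25 where the median over all genes was 0.02. No gene named below passed, and list counts are given at an unadjusted p under 0.05, which 3.67% of all genes met on the higher side and 1.65% on the lower side. Since whole brain was sampled, fewer cells of a type and less RNA per cell cannot be told apart.

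Genes of myelin and oligodendrocytes, the glia that wrap axons, read higher in SCA3 on balance. Of 21 tested genes 20 differed by more than 0, 6 were higher at an unadjusted p under 0.05, 0 were lower, and the median was 0.21. Mog, a myelin surface protein, read 10.33, 10.13, 10.07 and 10.82 in wt and 10.64, 10.36, 10.85, 10.81 and 11.03 in SCA3, a difference of 0.40 ± 0.17 (SE; adjusted p = 0.818). Pllp, the myelin lipid-raft protein plasmolipin, read 9.47, 9.48, 9.46 and 9.67 in wt and 9.63, 9.62, 10.13, 9.92 and 10.19 in SCA3, a difference of 0.38 ± 0.13 (SE; adjusted p = 0.678). Mal differed by 0.37, Mag by 0.29 and the very bright Mbp by 0.10. The mean level of the 21 genes, relative to each gene's mean over the 9 arrays, was -0.19, -0.16, -0.23 and 0.08 on the wt arrays and -0.03, -0.21, 0.22, 0.15 and 0.35 on the SCA3 arrays. The groups overlapped: wt replicate 4 stood above SCA3 replicates 1 and 2. The list median was 0.13 without SCA3 placebo replicate 5 and 0.29 without SCA3 placebo replicate 2, and 0.19 under quantile normalization. On the CCI-779 arrays it was -0.07, with 7 of 21 genes above 0. Over all genes the CCI-779 median was -0.04, with 38.6% above 0. Oligodendrocyte precursor genes had a median of 0.03 over 10 genes, with Pdgfra at -0.03 and Gpr17 at 0.04; Olig1, which both lists hold, differed by 0.14.

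Sterol and fatty acid synthesis, which supply myelin and synaptic membranes, had medians of 0.17 over 19 genes and 0.11 over 17 genes. Of the sterol genes 16 were above 0 and 1 was higher at an unadjusted p under 0.05: Sqle, squalene epoxidase, at 0.40 ± 0.17 (SE; adjusted p = 0.805). Hmgcs1 differed by 0.25 and Nsdhl by 0.24. All 17 fatty acid genes were above 0, which held for 15 of them after quantile normalization, and Elovl6 (0.30) and Me1 (0.21) were the 2 at an unadjusted p under 0.05. Fasn, fatty acid synthase, differed by 0.12. The mean sterol levels by array, on the scale of the myelin levels, were -0.09, -0.10, -0.33 and 0.23 in wt and -0.06, -0.27, 0.19, 0.19 and 0.25 in SCA3. Without wt placebo replicate 3 both medians were 0.07, without SCA3 placebo replicate 2 the sterol median was 0.29, and without wt placebo replicate 4 the fatty acid median was 0.18. On the CCI-779 arrays they were -0.11 and 0.00, where the median over all genes was -0.04.

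Markers of the cerebellum read higher in SCA3, but only with 1 wt array included. Over 11 Purkinje cell genes the median was 0.25 with all 11 above 0, and over 13 granule cell genes it was 0.16 with 12 above 0. Pcp2, a Purkinje cell protein, read 11.89, 11.32, 10.09 and 12.05 in wt and 11.47, 11.87, 11.94, 11.89 and 12.14 in SCA3. Ppp1r17, another Purkinje cell gene, read 9.09, 8.60, 6.67 and 9.01 in wt and 8.69, 8.91, 8.92, 9.0 and 9.07 in SCA3. Gabra6, the granule cell subunit of the GABA-A receptor, read 12.28, 11.66, 10.67 and 12.04 in wt and 11.63 to 12.11 in SCA3. In all 3 genes wt replicate 3 was the lowest of the 9 arrays, and its list level was -0.83 for Purkinje cells and -0.72 for granule cells, where the other 3 wt arrays lay between -0.12 and 0.29. Without that array the medians were 0.02 and -0.03, with 8 of 11 and 5 of 13 genes above 0, and Pcp2, Ppp1r17 and Gabra6 differed by 0.11, 0.02 and -0.03. Without wt placebo replicate 1, in contrast, the medians were 0.38 and 0.26. Thalamus, midbrain and hindbrain genes shifted with it too, from a median of 0.05 over 10 genes to -0.06. Calb1 and Car8, further Purkinje cell genes, differed by 0.15 and 0.31 with the array and by 0.01 and -0.02 without it.

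**Figure D3:**
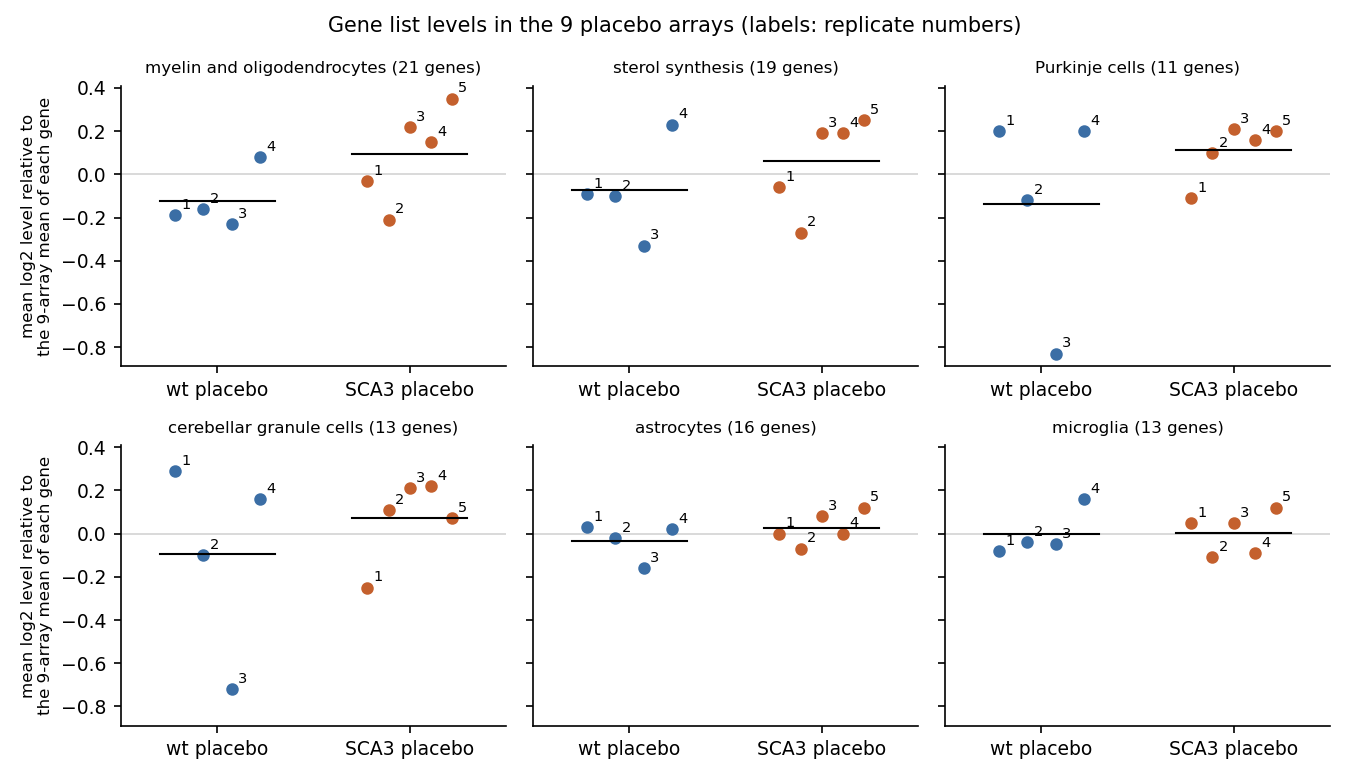
Mean log2 level of 6 gene lists (vertical axes, relative to each gene's mean over the 9 placebo arrays) in wt and SCA3 arrays; points are arrays with their replicate numbers and bars are group means. The wt replicate 3 array lies at -0.83 for Purkinje cell genes and -0.72 for granule cell genes, far below the other 8, while myelin levels overlap between genotypes with SCA3 replicate 5 highest at 0.35.

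Other neuron classes showed medians close to that of all genes. Pan-neuronal genes had a median of 0.07 over 15 genes, with Rbfox3 at -0.09, Snap25 at -0.02 and the neurofilament gene Nefh at 0.24. Striatal projection neuron genes had a median of 0.00 over 18 genes, with Ppp1r1b at 0.10, Drd1 at -0.12 and Drd2 at 0.45; the latter read 5.23 to 5.79 in wt and 5.87 to 5.99 in SCA3, without overlap. Cortical and hippocampal glutamatergic genes had a median of -0.02 over 19 genes, with Neurod6 at -0.08. GABAergic interneuron genes had a median of 0.01 over 16, with Gad1 at 0.00 and Gad2 at -0.05. Slc32a1, the vesicular GABA transporter, read 10.01, 10.04, 9.81 and 9.95 in wt and 10.09, 10.16, 10.25, 10.28 and 10.27 in SCA3. It was higher on all 5 SCA3 arrays, by 0.26 ± 0.08 (SE; adjusted p = 0.636). Monoamine neuron genes had the lowest median, -0.08 over 8 genes, with Nr4a2 at -0.17, but the defining markers Th, Slc6a4 and Slc6a2 were not among the tested genes. Likewise Avp, Oxt and Pomc were not among the 7 hypothalamic genes tested, whose median was 0.00.

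Markers of microglia and astrocytes, glia that react to injury, had medians near that of all genes. The microglia list had a median of 0.01 over 13 genes, with 0 genes at an unadjusted p under 0.05 in either direction. Its members ran from -0.14 to 0.34, with 7 above 0 and 6 below. The defining genes Csf1r, Cx3cr1 and P2ry12 differed by -0.14, -0.11 and -0.06, and C1qc by 0.34. Gfap, the filament protein that reactive astrocytes make in excess, read 9.51 ± 0.22 (SD, n = 4) in wt and 9.54 ± 0.27 (SD, n = 5) in SCA3, a difference of 0.03 with a 95% interval of -0.73 to 0.79. The astrocyte list had a median of 0.06 over 16 genes, with the water channel Aqp4 at 0.07 and the gap junction gene Gja1 at -0.17. Interferon and inflammation genes had a median of 0.06 over 11 genes, with B2m at 0.26 and Ifit3 at 0.03. Endothelium and pericytes had a median of -0.05 over 10 genes, with Itm2a at -0.17. Meninges and fibroblasts had 0.14 over 15 genes, with Ptgds at 0.23; the median was 0.08 without SCA3 placebo replicate 5 and 0.22 without SCA3 placebo replicate 1. The choroid plexus had 0.10 over 9 genes, with Otx2 at 0.71 and Kcne2 at 0.44, but 0 without wt placebo replicate 3 and 0.24 without wt placebo replicate 4. Otx2 read 5.90, 4.80, 4.71 and 5.82 in wt and 5.83 to 6.24 in SCA3, with wt arrays 2 and 3 far below the rest, while Ttr, the most abundant choroid plexus transcript, differed by 0.03. Of 9 blood genes 2 were tested, with a median of -0.04, and Alas2 differed by -0.32 ± 0.61 (SE).

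**Figure D4:**
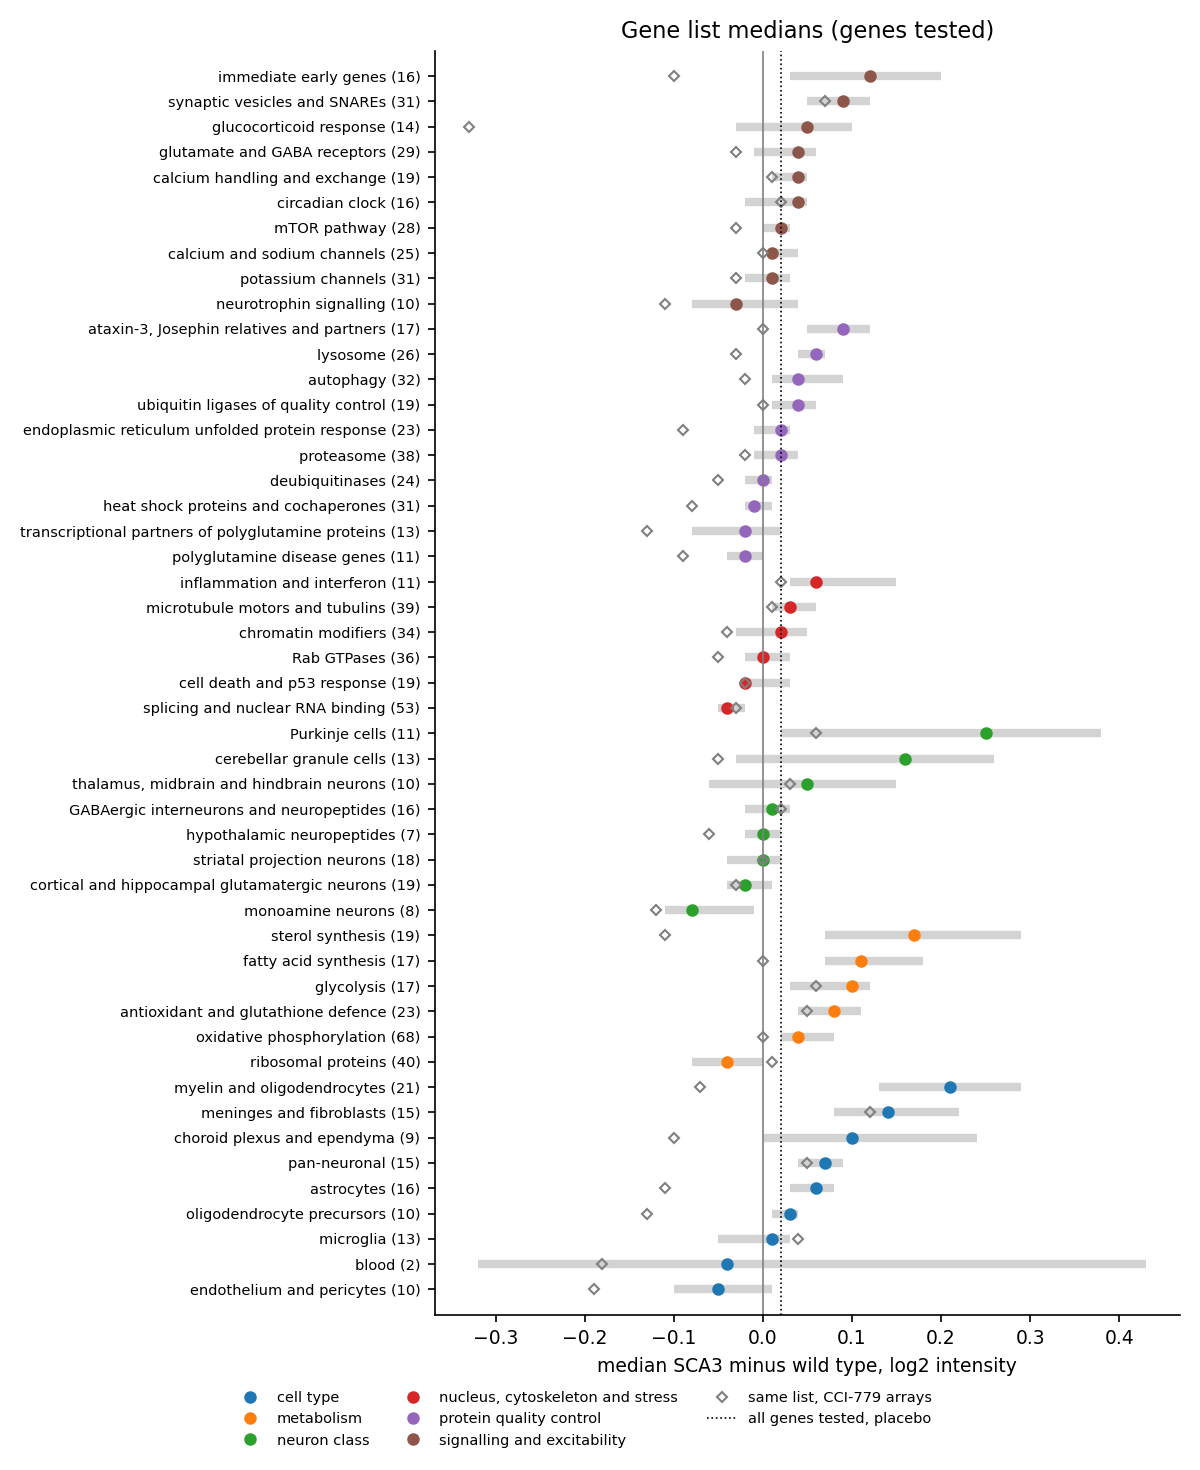
Median SCA3 minus wt difference in log2 intensity (horizontal axis) of 49 gene lists, with the number of tested genes in brackets. Filled points are placebo medians coloured by class of list, grey bars their range when each of the 19 arrays was left out in turn, open diamonds the CCI-779 medians and the dotted line the placebo median of all genes at 0.02; placebo medians run from -0.08 to 0.25, and the Purkinje cell bar reaches down to 0.02.

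The machinery that handles ataxin-3 and misfolded proteins showed small differences. Among ataxin-3, its Josephin relatives and its partners, 15 of 17 tested genes were above 0, with a median of 0.09 (0.05 without wt placebo replicate 3), and 2 were higher at an unadjusted p under 0.05. These were Vcp, which read 11.91, 11.80, 11.79 and 11.94 in wt and 11.92, 11.95, 12.09, 12.14 and 12.18 in SCA3 (0.20 ± 0.07, SE; adjusted p = 0.699), and Syvn1, a ubiquitin ligase of the endoplasmic reticulum, at 0.22. Stub1 differed by 0.06. Proteasome subunits had a median of 0.02 over 38 genes, with Psma1 at 0.14 and Psmb5 at 0.13. Ubiquitin ligases of quality control had a median of 0.04 over 19. Deubiquitinases had a median of 0.00 over 24, with Zranb1 at 0.60 and Usp9x at -0.19. Heat shock proteins and cochaperones had a median of -0.01 over 31 genes, with Hspa8 and Hsp90aa1 both at -0.02, Dnajb1 at -0.17 and Hsph1 at -0.23. The unfolded protein response had a median of 0.02 over 23 genes, with Hspa5 at -0.07, Ddit3 at 0.02, Xbp1 at -0.10 and Herpud1 at 0.15.

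Autophagy genes, the clearance route that mTOR restrains, had a median of 0.04 over 32 genes, with 2 higher and 0 lower at an unadjusted p under 0.05. Ulk1, the kinase that starts autophagy, read 9.11, 8.44, 8.64 and 8.94 in wt and 9.08, 9.04, 9.34, 9.20 and 9.26 in SCA3, a difference of 0.40 ± 0.14 (SE; adjusted p = 0.699). Atg4c differed by 0.27, and Becn1, Sqstm1 and Map1lc3b by 0.02, -0.03 and 0.00. Lysosomal genes had a median of 0.06 over 26, with Ctsl at 0.21 and Ctsd at 0.04. The mTOR pathway itself had a median of 0.02 over 28 genes, with Mtor at 0.16 and Rheb at 0.03.

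Genes of polyglutamine diseases had a median of -0.02 over 11. Htt, the Huntington disease gene, read 8.34 to 8.88 in wt and 8.64 to 9.19 in SCA3 (0.33 ± 0.12, SE; adjusted p = 0.701). Atxn1 differed by -0.17, Atxn2 by 0.00 and Atxn7 by -0.14. Among the transcriptional partners of polyglutamine proteins (median -0.02 over 13), Crebbp, a histone acetyltransferase that ataxin-3 binds, read 9.64 ± 0.06 (SD, n = 4) in wt and 9.75 ± 0.02 (SD, n = 5) in SCA3, and Sp1 read 9.02 ± 0.06 and 8.73 ± 0.11. Neither pair of groups overlapped, and neither difference passed (adjusted p = 0.895 and 0.795). Splicing and nuclear RNA-binding genes had a median of -0.04 over 53, with 5 lower and 1 higher at an unadjusted p under 0.05. Tardbp, which encodes TDP-43, read 10.35 to 10.55 in wt and 10.04 to 10.35 in SCA3, groups that met but did not overlap, with a difference of -0.23 ± 0.08 (SE; adjusted p = 0.699). Luc7l2, a splicing factor gene, read 11.97, 11.93, 11.93 and 11.77 in wt and 11.80, 11.70, 11.37, 11.10 and 11 in SCA3, a difference of -0.50 ± 0.19 (SE; adjusted p = 0.752). Srsf1 differed by -0.02.

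Signalling and excitability lists had medians of -0.03 to 0.12. Immediate early genes, which follow neuronal activity, had a median of 0.12 over 16 genes and spread widely between arrays. Arc read 7.14, 5.15, 5.76 and 6.92 in wt and 6.81, 5.84, 7.43, 7.42 and 8.61 in SCA3, so its difference of 0.98 carries an SE of 0.57 (adjusted p = 0.896), and Fos and Egr1 differed by 0.26 and -0.02. The list median was 0.03 without SCA3 placebo replicate 5 and 0.20 without SCA3 placebo replicate 2. Calcium handling had a median of 0.04 over 19 genes, with Atp2a2 at 0.12 and Camk4 at 0.22. Glutamate and GABA receptors had 0.04 over 29, with Gria1 at 0.04 and Gria2 at -0.06. Synaptic vesicle and SNARE genes had 0.09 over 31, with 3 higher and 0 lower at an unadjusted p under 0.05, Cplx2 at 0.23 and Vamp2 at 0.19. Potassium channels had 0.01 over 31 and calcium and sodium channels 0.01 over 25, with Kcna1 at 0.24, Kcnma1 at -0.62 ± 0.32 (SE) and Cacna1a, the gene of another polyglutamine ataxia, at 0.16. Neurotrophin signalling had -0.03 over 10, with Ntrk2 at -0.22 and Bdnf at -0.05. The circadian clock had 0.04 over 16, with Arntl at -0.27 and Dbp at 0.07, and the glucocorticoid response 0.05 over 14, with Fkbp5 at 0.09.

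Energy metabolism leaned the same way as the genes at large. Oxidative phosphorylation had a median of 0.04 over 68 genes, of which 49 were above 0 and 0 had an unadjusted p under 0.05, with Ndufs1 at 0.09 and Cox4i1 at 0.04. Glycolysis had 0.10 over 17 (0.03 without SCA3 placebo replicate 5), with Hk1 at 0.13 and Slc2a3, the neuronal glucose transporter, at 0.19. Antioxidant genes had 0.08 over 23, with Gclm at 0.22 and Sod1 at -0.03. Ribosomal proteins ran the other way, with 12 of 40 above 0, a median of -0.04 and Rps20 at -0.11. Chromatin modifiers (0.02 over 34), microtubule motors and tubulins (0.03 over 39, with Mapt at 0.21), Rab GTPases (0.00 over 36) and cell death genes (-0.02 over 19, with Cdkn1a at -0.13) completed the lists.

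The same genotype difference on the 10 CCI-779 arrays shares no array with the placebo comparison. Across 10454 genes, which are not independent replicates, the 2 differences correlated with r = 0.20 and Spearman's rho = 0.22. Both were fitted with 1 common estimate of the spread. Of the 556 genes at an unadjusted p under 0.05 under placebo, 319 (57.4%) had the same sign under CCI-779, against 55.3% of all genes, and 78 had an unadjusted p under 0.05 with the same sign in both, 28 higher and 50 lower, while 26 had it with opposite signs. With all 19 arrays, the CCI-779 comparison had 1892 genes at an unadjusted p under 0.05 (18.1%), a share close to that of the 78 and 26 together among the 556. It had 449 higher and 1443 lower genes, and 2 calls of 20473 probe sets. Without the 3 CCI-779 arrays that stand apart it had 675 such genes (6.46%), and r was 0.15 with rho at 0.16. The placebo comparison then had 846 such genes, of which 64.2% had the same sign under CCI-779, against 56.1% of all genes. Of the 846, 76 had an unadjusted p under 0.05 with the same sign in both and 12 with opposite signs. The CCI-779 comparison had 1120 such genes without SCA3 CCI-779 replicate 2 alone and 1246 without SCA3 CCI-779 replicate 5 alone. Centred on array medians it had 739 higher and 962 lower genes (16.3%), and the placebo comparison had 568 such genes. Of the 568, 52 were higher and 50 lower in both and 20 were opposite. The same sign was found for 65.1% of the 568, against 58.1% of all genes. Without the 3 arrays, and after centring, the 2 shares compared above lay further apart. The 78 genes were 41 without wt placebo replicate 2, 49 without SCA3 placebo replicate 3 and 50 without SCA3 placebo replicate 5. The interaction had 0 calls by limma with 1573 probe sets at an unadjusted p under 0.05. The 12 higher genes named for their small p had a median of 0.36 under placebo and 0.02 under CCI-779, and the 12 lower genes -0.36 and -0.05.

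A few genes differed alike under both agents; they were chosen after their values were seen, as the 12 of the 78 whose smaller difference was largest, and none passed in either. Dipk1b differed by 0.59 under placebo and 0.51 under CCI-779. It read 8.61, 8.61, 7.98 and 8.49 in wt and 8.96, 8.68, 9.17, 8.68 and 9.56 in SCA3 under placebo, and 8.15 to 8.68 and 8.68 to 9.24 under CCI-779. Drd2 differed by 0.45 and 0.44, and Tnr by -0.50 and -0.66. Tgfa, a ligand of the EGF receptor, differed by -0.36 and -0.44, Ephx2, an epoxide hydrolase, by -0.36 and -0.34, and Rap2c, a small GTPase, by -0.37 and -0.48. Tsga10 differed by -0.41 and -0.49, Chpf2, of chondroitin sulfate synthesis, by 0.38 and 0.48, Spen, a transcriptional corepressor, by 0.36 and 0.54, and Cstf3, of mRNA 3′ end cleavage, by -0.35 and -0.44. Pfdn1, a subunit of the prefoldin chaperone, differed by 0.33 and 0.35, and Cic, a transcriptional repressor that binds ataxin-1, by 0.30 and 0.48. Among the listed genes, Rab1b (-0.38 and -0.28) and Tardbp (-0.23 and -0.27) also differed alike. The adjusted p-values of these 14 genes were 0.369 to 0.86 under placebo and 0.115 to 0.298 under CCI-779.

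**Figure D5:**
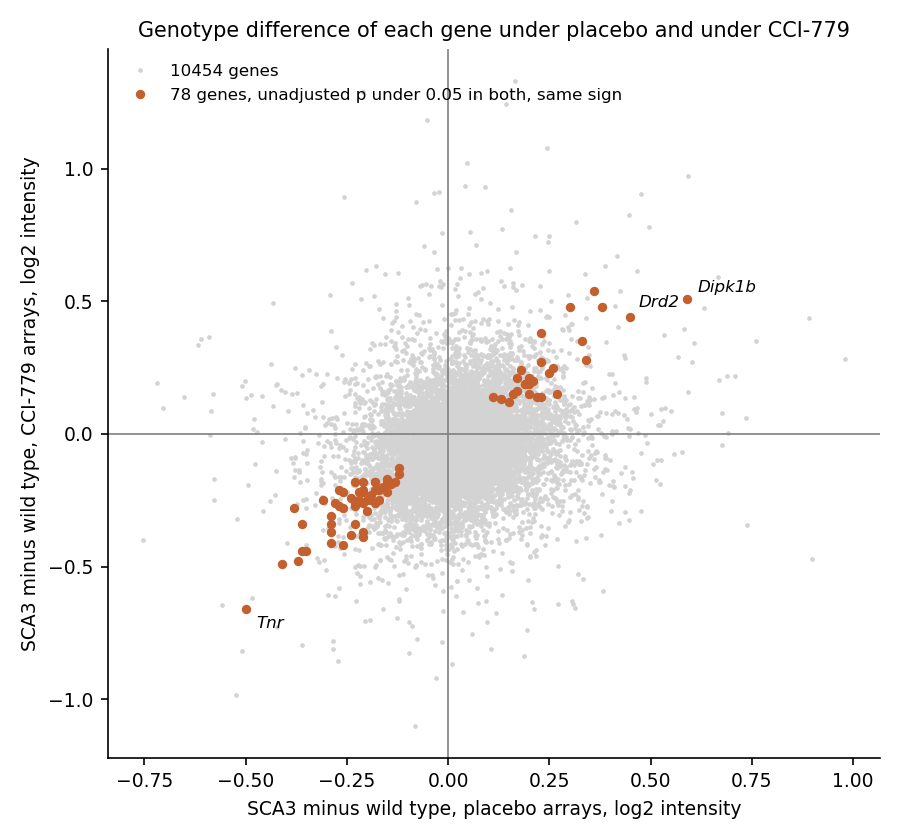
SCA3 minus wt difference in log2 intensity of each of 10454 genes on the placebo arrays (horizontal axis) and on the CCI-779 arrays (vertical axis). Grey points are genes and orange points the 78 with an unadjusted p under 0.05 and the same sign in both; the cloud is loosely tilted (r = 0.20), and Dipk1b lies at 0.59 and 0.51.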

How the data were processed

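Each of the 19 single-colour Affymetrix arrays has 1 column of linear intensity in the table the authors deposited. Per the submitters' processing notes the values come from GCRMA, which corrects background by probe sequence and normalizes between arrays (version not given in the sources used here). Log2 of the deposited intensity was taken with no pseudocount. The 64 control probe sets served as quality measures only. Of 45037 others, 34945 had 1 symbol, 932 several and 9160 none in the platform annotation. Probe sets averaging 4 or more in log2 intensity were tested with limma 3.58.1 in R 4.3.3, in 1 fit of 4 group means (15 residual degrees of freedom, prior degrees of freedom 2.59), so CCI-779 arrays add to the estimate of spread. The number of arrays limits the precision. The fit was tested on simulated data.

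Genes named are Atxn3, Prnp and Usp15, called probe sets, the 12 higher and 12 lower genes with the smallest p, and the 8 widest per direction without overlap. List genes were drawn from the first 3 measured in each list and the 2 with the smallest p, but the text names only part of these. Others are said to be chosen after their values were seen. The members and lists were chosen with earlier results of these data known. Alternatives were other filters, scalings, priors, weights, array subsets, gene summaries and a replicate block.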

Additional observations from a re-analysis of the deposited data

Results flagged for a closer look

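In groups of 4 or 5 placebo arrays, 26 of 482 sets of values held 1 array far from the others by Dixon's test at 95%, where chance gives about 1 in 20. The values were spread over the arrays, with 2 to 4 each.

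Among wt placebo arrays, blood genes stood out on replicate 2, with Alas2 (a heme synthesis enzyme of red cell precursors) at 8.54 where the other 3 arrays read 5.65 to 5.86, and a blood list level of 1.41. Replicate 4 was high for the endothelial tight junction gene Cldn5 (8.63), for Pllp (9.67), for Bcl2l11 (5.44) and for the microglia list (0.16). Replicate 3 stood out for B2m (11.24) and the urea transporter gene Slc14a1 (5.25). Replicate 1 stood out for Dtnb (6.26), Fam81a (10.23) and Prnp (13.97), and replicate 2 for a dim Usp15 probe set (4.68).

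Among SCA3 placebo arrays, replicate 1 stood out for the microglial receptor gene Cx3cr1 (8.59) and Slc8a2 (5.92). Replicate 2 stood out for Ezh2 (4.83), Kif1b (12.75), the same Usp15 probe set (4.29) and the chromatin modifier list (-0.07). Replicate 3 stood out for the clock output gene Dbp (12.20) and Selenon (7.31), and replicate 4 for Rbfox3 (13.13) and the Gapdh 3′ minus 5′ difference (-0.47). Replicate 5 stood out for Fam102a (9.46), Pdk4 (6.53), Rab5a (12.34) and the unfolded protein response list (0.11). None of these values belongs to a called probe set.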

How the results depend on the processing

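Under placebo 2 probe sets passed. Keeping all dim probe sets left 1 call (Trp53inp1, -0.30, adjusted p = 0.0015), quantile normalization 1, the 9 placebo arrays alone 1 and probe sets averaged per gene 1, while brightest probe sets adjusted over genes, further minus brightest probe sets, and the fit without the 3 CCI-779 arrays that stand apart each left 0. The last 2, and the CCI-779 gene counts under other settings, were added after seeing the data. Leaving out 1 array in turn gave 0 to 8 calls. A threshold of 0.10 gave the same 2. The CCI-779 comparison had 2 calls, 1 with all dim probe sets, 6 with array weights and 0 to 8 with 1 array left out; the interaction had 0 in every fit run. The cause of these shifts was not tested.

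The replicate block left 0 placebo calls, with adjusted p-values of 0.212 for Arglu1 and 0.402 for Slc8a1. The labels do not say that a sample number pairs arrays. Same-numbered deviations correlated at -0.20, 0.11, -0.16 and 0.23, and 1 of 4 numbers correlated best with itself. So few values cannot decide whether a number pairs arrays, and pairing stays unknown.

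Of 5593 alternative values for 187 probe sets, 0 reversed a call, 35 lost one (Arglu1 and Slc8a1) and 3 gained one. Some uncalled differences shrank under an alternative, to 0.05 for Acad8, 0.08 for Htt, -0.10 for Kdm5b and -0.01 for Sp1. Others held, with Rab1b at -0.43 to -0.35 and Foxred2 at 0.55 to 0.79. Of 1470 alternative list medians 16 moved by at least the spread between arrays (the SD of a list's level within the 2 placebo groups), and 25 of 49 lists changed sign at least once. An array far from the others widens that spread. The Purkinje and granule cell medians fell to 0.02 and -0.03 without wt placebo replicate 3, yet do not count as moved, as their spread is 0.33 each. Dim probe sets lie near background, where intensity limits what can be seen.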
